A study of Astyanax mexicanus with 36 samples.

Results

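Small oocytes of the Molino cave population of the Mexican tetra, Astyanax mexicanus, were compared with small oocytes of surface fish. The comparison takes the 3 Molino and the 3 surface libraries of the size category labelled 40um, 6 of the 36 libraries of the study, identified by their labels. The comparison itself was chosen with earlier results of these data known. The study sequenced total RNA in bulk from oocytes of 4 size categories, 40um, 40_100um, 100_300um and 300um, taken from Molino, Pachón and surface fish. All fish are labelled as wild type and non-treated, and their right ovaries were sampled at about 520 days post fertilization. Molino and Pachón are blind cave forms, and surface fish are the eyed river form of the same species. The labels do not say whether 40um is an upper bound or a midpoint, and they do not tie the 3 replicates to separate fish. The tests therefore weigh differences against the spread between libraries, part or all of which may be technical. In the gene test at 40um that spread was estimated over 9 libraries, the 3 of Pachón included.

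The smallest oocytes of a fish ovary lie in or just after early meiotic prophase, where homologous chromosomes pair and recombine. They are held in nests or in young follicles, surrounded by granulosa cells, and blood, stromal and immune cells lie close by. As an oocyte grows it stores messenger RNA, ribosomes and yolk for the embryo, and the granulosa layer around it later makes steroid hormones.

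Each of the 6 libraries held 3.35 to 6.87 M reads in genes, or 29.3 to 51.8% of the reads of each, and 15917 genes passed the filter on low counts. Levels are CPM after TMM scaling, that is, a gene's reads relative to the scaled library size, with no correction for gene length. The markers written for oocytes matched 34 genes by symbol, with some markers matching none, and each of these 34 oocyte factors had reads in all 6 libraries. Markers of other cells were found as well, with reads in all 6 libraries for 39 of 46 granulosa cell genes, 27 of 29 erythrocyte genes and 31 of 39 macrophage and granulocyte genes. The 40um label therefore stands for oocytes together with other cells of the ovary. In bulk RNA, fewer cells of a type and less RNA per cell cannot be told apart.

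Libraries of the same group differed in this mixture. The summed CPM of the oocyte factors over that of 227 markers of other cells was 1.01, 0.598 and 0.306 in Molino replicates 1 to 3, against 4.15, 0.256 and 1.71 in surface replicates 1 to 3. Surface replicate 2 stood apart from its replicates, with the lowest oocyte share of the 6 and the highest sum of plasma proteins, 13.22 on the log2 CPM scale against 8.93 and 9.21 in surface replicates 1 and 3. The sums of all other-cell markers overlapped: they were 14, 14.38 and 14.43 log2 CPM in Molino and 12.64, 14.77 and 13.66 log2 CPM in surface fish (difference 0.58, exact two-sided permutation test p = 0.6, where 0.1 is the smallest p that 3 against 3 allows; adjusted over 13 sums, p = 0.758). Oocyte factors summed to 14.01, 13.64 and 12.72 log2 CPM in Molino and 14.69, 12.8 and 14.44 log2 CPM in surface fish (difference -0.52, exact p = 0.5). Without surface replicate 2 the groups would overlap neither in this sum nor in that of all other-cell markers.

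Of the 13 marker sums, 2 did not overlap between the groups, and neither did 15.6% of all single genes tested. Erythrocyte markers summed to 12.59, 12.16 and 12.12 log2 CPM in Molino, against 9.74, 11.12 and 11.56 log2 CPM in surface fish, a difference of 1.49. Skeletal muscle markers summed to 6.31, 6.08 and 6.08 log2 CPM in Molino, against 8.92, 8.12 and 9.09 log2 CPM in surface fish, a difference of -2.55. Ryr1b and both copies of atp2a1, 3 of these 48 markers, made up 33.1, 23.1 and 25.5% of the muscle sum in Molino and 60.9, 69.1 and 69.5% in surface fish, and the other 45 summed to 53.1, 52.2 and 50.5 CPM in Molino and 189, 85.8 and 167 CPM in surface fish. Both sums had the smallest possible exact p = 0.1, and p = 0.65 adjusted over the 13 sums.

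**Figure D1:**
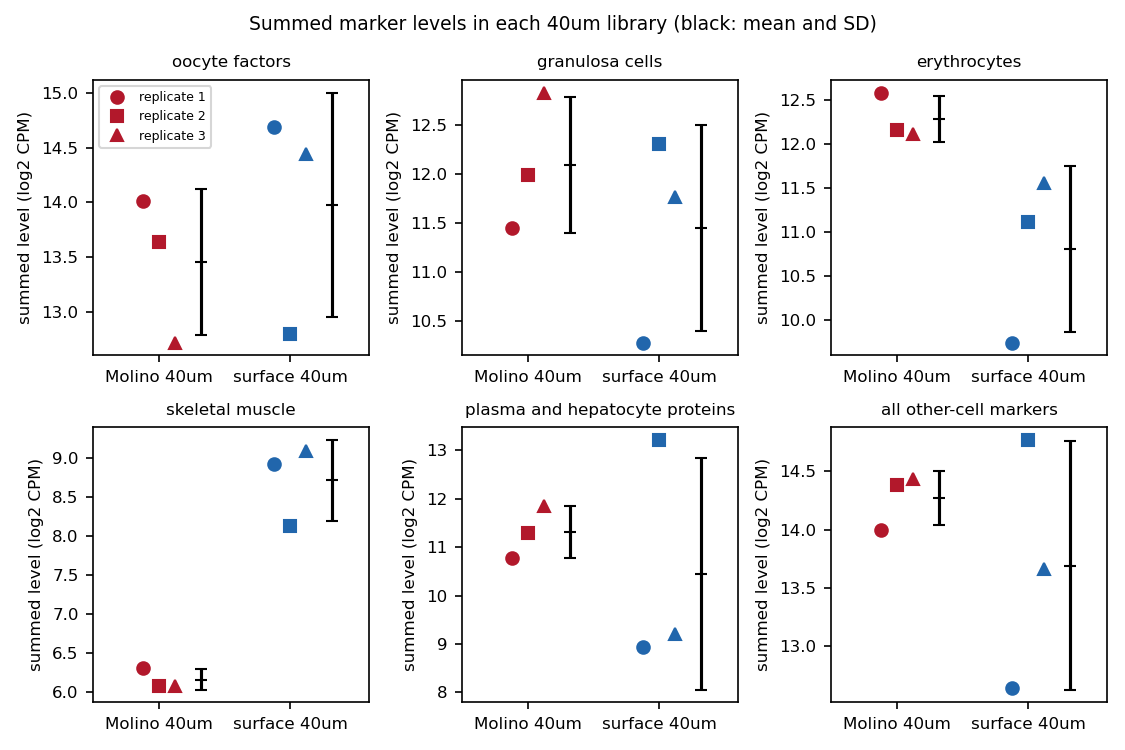
Summed level of 6 marker lists (log2 CPM) in each 40um library, Molino left and surface fish right, with symbols for replicates 1 to 3 and the mean and SD in black. Erythrocyte and skeletal muscle sums are separate between the groups, the other sums overlap, and surface replicate 2 has the highest sum of plasma proteins and of all other-cell markers.

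In the test of all genes, 83 of 15917 passed an adjusted p of 0.05 (0.521%), 35 of them higher in Molino (0.22%) and 48 lower (0.302%). In a fit of only the 6 libraries compared, without Pachón, 40 genes passed, and 35 of those 40 were among the 83. Scaled to library totals, which raised the median of all genes to 0.03 from -0.08 on the log2 scale, 56 were higher and 49 lower. The genes that fell include motors and kinetochore or replication proteins of dividing cells, a meiotic recombinase, calcium handling genes of muscle, a glutathione transferase and enzymes that build glycans. The genes that rose include the gonadal transcription factor wt1b, the steroid enzyme cyp17a2, a melatonin receptor, a small heat shock protein and many genes without a symbol. In all 83 the CPM of the 3 Molino libraries lay wholly above or below those of the 3 surface libraries, which held for 15.6% of all genes tested. The test itself favours such genes, so this separation adds no support of its own. The smallest differences that passed were 2.41 upward and -2.24 downward on the log2 scale, and 1809 genes (11.4%) had an unadjusted p under 0.05. Of all genes tested, 44.6% were positive and 55.3% negative, and groups that do not overlap were found with Molino higher in 7.64% and with Molino lower in 7.97%. Counts in gene lists are to be read against these shares, also where a list is given without them. Spread between replicates was wide at this size, with a common dispersion of 0.246, against 0.0509, 0.0691 and 0.0527 at 40_100um, 100_300um and 300um.

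The number that passed depended on single libraries. It was 354 without surface replicate 2, the library with the raised plasma markers, and 69 without surface replicate 1. Without surface replicate 3 it was 9, and without Molino replicates 1, 2 and 3 it was 9, 2 and 5. With the other-cell markers of each library as a covariate 272 genes passed, among them all 83, and with surface replicate 2 and Molino replicate 3 left out together 91 passed, 47 of them shared. An unnamed gene, ENSAMXG00000010369, passed in all 6 fits with a library left out. Its levels were 40.8, 63.5 and 66.4 CPM in the Molino libraries, against 1.45, 0.681 and 1.09 CPM in the surface libraries (log2 fold change 5.66, SE 0.52, adjusted p = 0.00727). The glutathione transferase gstr and the unnamed ENSAMXG00000040481, ENSAMXG00000035708 and ENSAMXG00000043219 each passed in 5 of the 6. Most of the 83 were less sturdy: 36 passed in 2 of these fits, and 35 only in that without surface replicate 2.

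**Figure D2:**
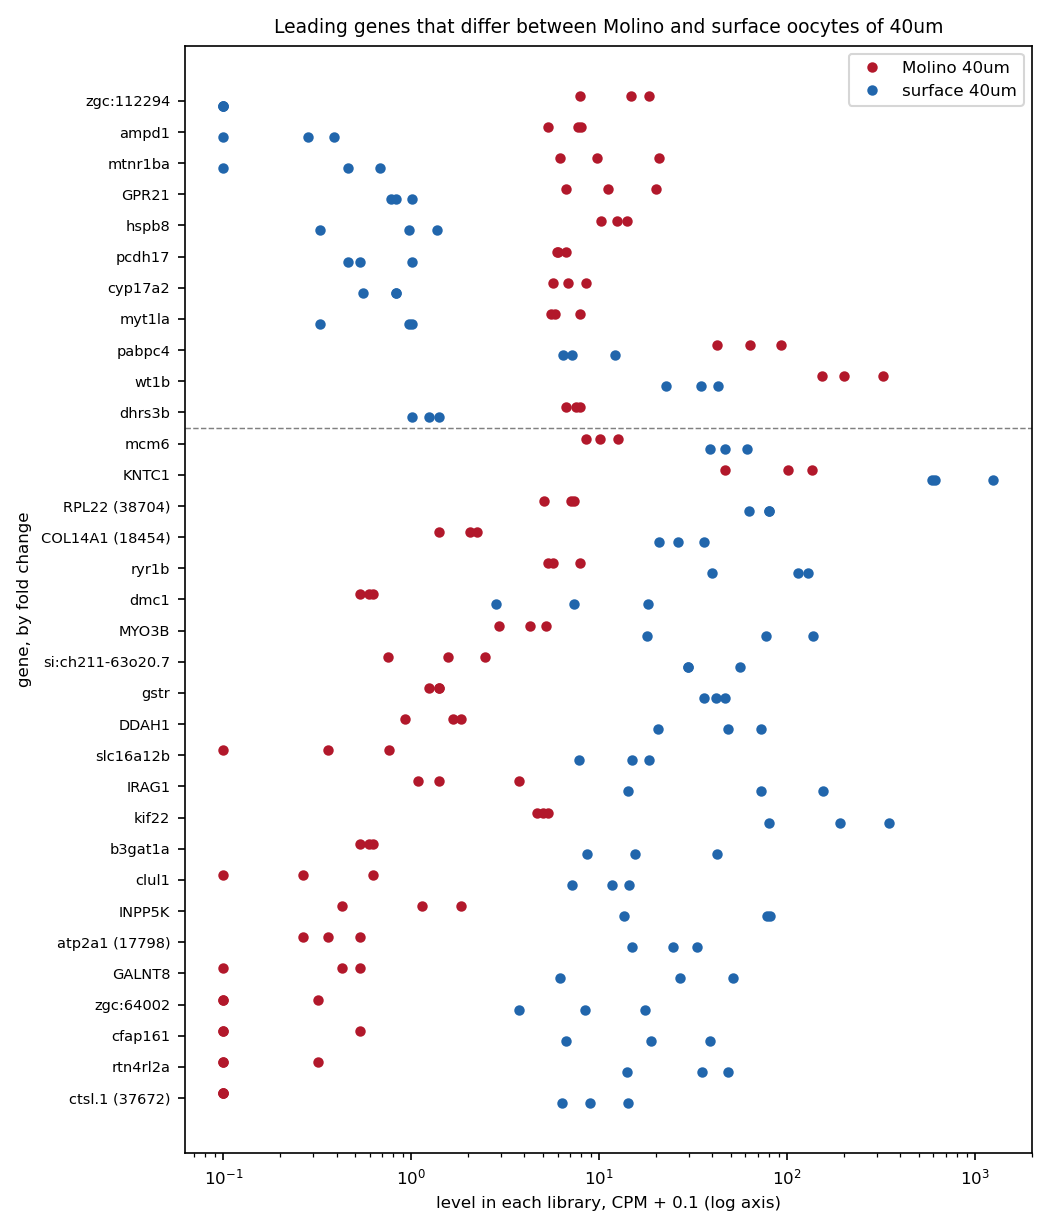
Level in every library (CPM + 0.1, log axis) of the genes named by rule that passed the test, Molino in red above surface fish in blue within each gene, ordered by fold change, with genes higher in Molino above the dashed line. Within each gene the 3 red and the 3 blue points do not overlap, which the naming rule required of the largest changes. Points at 0.1 are libraries without reads.

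Genes of chromosome movement and DNA replication were among those lower in Molino. Kif22 encodes a kinesin that binds chromosome arms and moves them on the spindle. It had 4.92, 4.57 and 5.23 CPM in the Molino libraries, against 349.7, 79.4 and 189.9 CPM in the surface libraries. The 3 Molino libraries were near each other and all low, while surface libraries were high but spread over a wide range (log2 fold change -5.39, SE 0.72, adjusted p = 0.0164). KNTC1, a kinetochore protein that recruits dynein in the spindle checkpoint, was far more abundant, with 136, 101 and 46.8 CPM in the Molino libraries, against 1253, 609.9 and 593 CPM in the surface libraries (log2 fold change -3.11, SE 0.57, adjusted p = 0.0477). Mcm6, a subunit of the replicative helicase, had 8.37, 10.01 and 12.6 CPM in the Molino libraries, against 60.8, 46.3 and 38.7 CPM in the surface libraries (log2 fold change -2.24, SE 0.39, adjusted p = 0.0413). With the other-cell covariate these differences were -4.52 (adjusted p = 0.00102) for kif22, -2.72 (adjusted p = 0.0141) for KNTC1 and -2.13 (adjusted p = 0.0165) for mcm6. Of the 6 fits with a library left out, kif22 passed in 2. KNTC1 and mcm6 passed in 1, that without surface replicate 2. The list of 48 tested cell cycle genes does not hold kif22, and KNTC1 and mcm6 were its only members that passed. So 2 fell and none rose (0.302% of all genes fell), and 33 were negative (55.3% of all genes). Their median was -0.35, against -0.08 for all genes tested. Mcm3, another subunit of the same helicase, did not pass (chosen after its values were seen): it had 14.6, 13.1 and 8.63 CPM in Molino against 37.8, 30.2 and 95.0 CPM in surface fish, -2.16 (SE 0.54, adjusted p = 0.11) on the log2 scale.

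In the meiosis list, the recombinase dmc1 fell. Dmc1 coats single-stranded DNA and drives strand exchange between homologous chromosomes. It had 0.492, 0.435 and 0.523 CPM in the Molino libraries, against 18.1, 2.72 and 7.24 CPM in the surface libraries (log2 fold change -4.21, SE 0.78, adjusted p = 0.0493). Molino libraries were all below 1 CPM, and the lowest surface library was replicate 2, the one with the lowest oocyte share. Dmc1 passed in 1 of the 6 fits with a library left out, that without surface replicate 2. At larger sizes it did not pass where tested, with -1.54 at 40_100um (adjusted p = 0.145) and -1.97 at 100_300um (adjusted p = 0.219). Of 14 tested meiosis genes 1 fell and none rose (0.302% of all genes fell), 10 were negative (55.3% of all genes), 6 had an unadjusted p under 0.05 in the negative direction (6.74% of all genes), and the median was -1.39. Sycp3, part of the axis that holds paired chromosomes, did not pass and had 1.15, 2.39 and 0 CPM in Molino against 22.7, 3.86 and 27.3 CPM in surface fish (-3.87 (SE 1.21, adjusted p = 0.208)). MSH4 and MSH5, which together stabilise crossovers, and mnd1, a partner of dmc1, were chosen after their values were seen and did not pass either. MSH4 had 5.25, 2.83 and 2.35 CPM in Molino against 24.5, 8.40 and 34.4 CPM in surface fish (-2.66 (SE 0.67, adjusted p = 0.112)). MSH5 stood at -2.56 (SE 0.72, adjusted p = 0.158) and mnd1 at -2.69 (SE 0.77, adjusted p = 0.165). In all 4 genes just given, the groups do not overlap, and surface replicate 2 is the lowest surface library. Spo11, which makes the DNA breaks that start recombination, was separate the other way without passing and was chosen after its values were seen: it had 4.76, 2.83 and 2.88 CPM in Molino against 2.75, 1.14 and 0.724 CPM in surface fish (1.15 (SE 0.72, adjusted p = 0.611)). The 30 early germ cell markers summed to 11.22, 10.94 and 9.99 log2 CPM in Molino and 11.92, 10.14 and 11.62 log2 CPM in surface fish, which overlap. Their part in the lower meiosis values was not tested.

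Ryr1b and 1 copy of atp2a1, calcium handling genes of the skeletal muscle list, fell. Ryr1b encodes a ryanodine receptor, the calcium release channel of the sarcoplasmic reticulum. It had 5.58, 5.22 and 7.84 CPM in the Molino libraries, against 39.8, 114 and 129 CPM in the surface libraries (log2 fold change -3.92, SE 0.56, adjusted p = 0.0193). Atp2a1 encodes the fast muscle calcium pump that refills the same store, and the symbol stands for 2 genes. The copy ENSAMXG00000017798 had 0.164, 0.435 and 0.261 CPM in the Molino libraries, against 33.1, 14.8 and 24.4 CPM in the surface libraries (log2 fold change -6.30, SE 0.82, adjusted p = 0.0164). The other copy, ENSAMXG00000010004, was more abundant and did not pass: 20.5, 10.01 and 9.15 CPM in Molino, against 221, 63.1 and 227 CPM in surface fish (log2 fold change -3.68, adjusted p = 0.0551). Reads that mapped to more than 1 place were counted apart as unassigned, 13 to 24.5% of reads in the 6 libraries. The separate values of such copies are therefore uncertain.

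Of 18 tested skeletal muscle genes 2 fell and none rose (0.302% of all genes fell), 17 were negative (55.3% of all genes), 9 had groups that do not overlap with Molino lower (7.97% of all genes), and the median was -1.71. The alpha-actinins actn3a and actn3b and the calcium store protein casq1b did not pass and were chosen after their values were seen. Actn3a had 2.79, 1.52 and 1.31 CPM in Molino against 19.5, 3.40 and 75.3 CPM in surface fish (-4.08 (SE 1.03, adjusted p = 0.113)). Actn3b had 1.31, 0.435 and 0.523 CPM in Molino against 12.2, 2.27 and 9.59 CPM in surface fish (-3.31 (SE 0.79, adjusted p = 0.0976)). Casq1b stood at -2.73 (SE 0.94, adjusted p = 0.268). Most muscle markers were near silent in both groups: 20 of the 48 listed had reads in all 6 libraries, and the troponin genes tnni2a.4, TNNI2 and tnnc2.2 and the parvalbumin gene pvalb4 had none in any. Whether muscle cells had a part in these differences was not tested. At the larger sizes 6 of 17, 7 of 17 and 7 of 14 tested muscle genes fell and none rose at 40_100um, 100_300um and 300um, where 15.4%, 7.95% and 9.13% of all genes fell.

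Outside the list, myom2a, a protein of the sarcomere's M band, had 2.95, 2.39 and 1.05 CPM in the Molino libraries, against 33.0, 13.6 and 21.7 CPM in the surface libraries (log2 fold change -3.38, SE 0.56, adjusted p = 0.0331). IRAG1, which links cyclic GMP signalling to the release of calcium from internal stores, had 0.984, 1.30 and 3.66 CPM in the Molino libraries, against 14.04, 155 and 72.4 CPM in the surface libraries (log2 fold change -5.37, SE 0.94, adjusted p = 0.0416). Its surface libraries were all above the Molino ones but spread widely, with replicate 2 highest. MYO3B, an unconventional myosin, had 5.08, 2.83 and 4.18 CPM in the Molino libraries, against 136, 17.9 and 77.1 CPM in the surface libraries (log2 fold change -4.24, SE 0.77, adjusted p = 0.0477). Myom2a passes the test but ranks below the 14 largest falls, and the same holds for lipia, abcg2a, ehd1b, adgrv1, ptk2bb and fkbp11. These and the copies of PAMR1, TENM2, PLXNA2, DSEL and GUCY2C were chosen for naming after their values were seen.

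Among genes of metabolism and transport, the lowest adjusted p with a symbol belonged to gstr, a glutathione S-transferase of fish, which joins glutathione to reactive compounds. It had 1.15, 1.30 and 1.31 CPM in the Molino libraries, against 46.3, 36.1 and 41.8 CPM in the surface libraries (log2 fold change -5.02, SE 0.50, adjusted p = 0.00752). Both groups were tight, and surface replicate 2 was not apart from its replicates here. It passed in 5 of the 6 fits with a library left out, and not without Molino replicate 2 (adjusted p = 0.0622). Of 39 tested antioxidant genes gstr was the only one that passed, and the list median was -0.13. DDAH1, which breaks down a natural inhibitor of nitric oxide synthase, had 0.820, 1.74 and 1.57 CPM in the Molino libraries, against 72.7, 20.4 and 48.1 CPM in the surface libraries (log2 fold change -5.10, SE 0.74, adjusted p = 0.0232). INPP5K, a phosphatase of inositol phospholipids, had 0.328, 1.74 and 1.05 CPM in the Molino libraries, against 80.8, 13.4 and 78.0 CPM in the surface libraries (log2 fold change -5.80, SE 0.92, adjusted p = 0.0313). Slc16a12b, a member of the monocarboxylate transporter family, had 0.656, 0 and 0.261 CPM in the Molino libraries, against 14.9, 7.72 and 18.3 CPM in the surface libraries (log2 fold change -5.26, SE 0.77, adjusted p = 0.0232).

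Lipia, a lipase, had 4.26, 7.18 and 5.49 CPM in the Molino libraries, against 42.7, 28.8 and 53.2 CPM in the surface libraries (log2 fold change -2.88, SE 0.50, adjusted p = 0.0413). Abcg2a, an efflux pump for drugs and metabolites, had 3.44, 4.79 and 7.32 CPM in the Molino libraries, against 57.2, 59.5 and 40.4 CPM in the surface libraries (log2 fold change -3.34, SE 0.54, adjusted p = 0.0319). Its 3 surface libraries lay close together. Of 40 tested genes of lipid synthesis and storage none passed, 20 were positive and 20 negative. Cbsb, an enzyme that makes cystathionine from homocysteine, came near the threshold without passing and was chosen after its values were seen: it had 38.2, 27.2 and 15.9 CPM in Molino against 369.8, 121 and 185 CPM in surface fish (-3.05 (SE 0.60, adjusted p = 0.057)). Its paralogue cbsa had 50.0, 34.6 and 31.1 CPM in Molino against 121, 65.6 and 166 CPM in surface fish (-1.61 (SE 0.55, adjusted p = 0.264)).

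Other single genes that fell encode a pair of glycosyltransferases, a pair of receptors and a tyrosine kinase, ordered here by role with no test of such a group. GALNT8, which starts O-linked glycan chains, had 0.328, 0.435 and 0 CPM in the Molino libraries, against 6.08, 26.8 and 51.6 CPM in the surface libraries (log2 fold change -6.56, SE 1.05, adjusted p = 0.0451). B3gat1a, which adds glucuronic acid to the HNK-1 carbohydrate, had 0.492, 0.435 and 0.523 CPM in the Molino libraries, against 8.54, 15.4 and 42.2 CPM in the surface libraries (log2 fold change -5.44, SE 0.77, adjusted p = 0.0193). Rtn4rl2a, a relative of the Nogo receptor, had a single read over the 3 Molino libraries and was at 0, 0.218 and 0 CPM in Molino against 13.9, 34.95 and 48.1 CPM in surface fish. Its ratio was 445-fold (counting interval 79.5 to 17600) lower in Molino (adjusted p = 0.0122). Adgrv1, a very large adhesion receptor, had 2.46, 4.79 and 3.14 CPM in the Molino libraries, against 23.4, 13.8 and 17.9 CPM in the surface libraries (log2 fold change -2.41, SE 0.42, adjusted p = 0.0413). Ptk2bb, a tyrosine kinase of the focal adhesion family, had 1.48, 2.83 and 1.05 CPM in the Molino libraries, against 60.8, 14.8 and 24.4 CPM in the surface libraries (log2 fold change -4.20, SE 0.66, adjusted p = 0.0308).

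Collagen XIV is a matrix protein that binds collagen fibrils, and its symbol COL14A1 stands for 2 genes. The copy ENSAMXG00000018454 had 2.13, 1.96 and 1.31 CPM in the Molino libraries, against 36.04, 26.1 and 20.6 CPM in the surface libraries (log2 fold change -3.90, SE 0.52, adjusted p = 0.0164). Of 60 tested matrix genes and proteases it was the only one that passed, while the list median was 0.55. Further genes that share their symbol fell as well. Their log2 fold changes were -4.15 (SE 0.75, adjusted p = 0.0477) for PLXNA2 (ENSAMXG00000034599), a semaphorin receptor, -4.15 (SE 0.76, adjusted p = 0.0477) for DSEL (ENSAMXG00000026100), an enzyme of dermatan sulfate, and -5.83 (SE 0.71, adjusted p = 0.0127) for GUCY2C (ENSAMXG00000008839), a guanylyl cyclase receptor. In each of these the other copy did not pass or was not tested. The second PLXNA2 gene, ENSAMXG00000001315, had 32.3, 40.7 and 127 CPM in Molino against 9.70, 40.2 and 29.9 CPM in surface fish (log2 fold change 1.33, adjusted p = 0.517).

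Single genes with roles in cilia, endocytosis and protein folding were also among those that fell. Cfap161, a protein of motile cilia, had 2 reads over the 3 Molino libraries, with 0, 0.435 and 0 CPM in Molino against 18.8, 6.58 and 38.6 CPM in surface fish, a ratio of 160-fold (counting interval 44.1 to 1330) lower in Molino (adjusted p = 0.0416). Clul1, a relative of clusterin, had 3 reads there, with 0.164, 0 and 0.523 CPM in Molino against 14.3, 7.04 and 11.6 CPM in surface fish, 55.8-fold (counting interval 18.8 to 273) lower (adjusted p = 0.0232). Ehd1b, an ATPase of endocytic recycling, had 5.41, 5.22 and 6.54 CPM in the Molino libraries, against 18.8, 54.0 and 47.2 CPM in the surface libraries (log2 fold change -2.80, SE 0.45, adjusted p = 0.0313). Fkbp11, a prolyl isomerase of the endoplasmic reticulum, had 0.328, 0.435 and 0.784 CPM in the Molino libraries, against 2.60, 9.53 and 5.79 CPM in the surface libraries (log2 fold change -3.51, SE 0.63, adjusted p = 0.0451). Of the genes with a provisional symbol, si:ch211-63o20.7 had 1.48, 0.653 and 2.35 CPM in the Molino libraries, against 56.3, 29.5 and 29.5 CPM in the surface libraries (log2 fold change -4.68, SE 0.62, adjusted p = 0.0164). The second, zgc:64002, had a single Molino read and 0, 0.218 and 0 CPM in Molino against 3.62, 17.5 and 8.33 CPM in surface fish, 128-fold (counting interval 22.6 to 5070) lower (adjusted p = 0.0331).

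Single copies also fell in families with several genes. The ribosomal protein symbol RPL22 stands for 2 genes. The copy ENSAMXG00000038704 had 7.22, 6.96 and 4.97 CPM in the Molino libraries, against 62.5, 80.3 and 79.8 CPM in the surface libraries (log2 fold change -3.53, SE 0.37, adjusted p = 0.00921). The other, ENSAMXG00000030881, had 246, 180 and 181 CPM in Molino, against 208, 232 and 190 CPM in surface fish (log2 fold change -0.05, adjusted p = 0.973). So 1 copy fell while the more abundant one did not pass. Of 81 tested ribosomal protein genes 66 were positive (median 0.17), and the RPL22 copy was the only one that passed. The cysteine protease symbol ctsl.1, for a cathepsin L of the yolk processing list, stands for 16 genes, 5 of them tested. The copy ENSAMXG00000037672 had 0, 0 and 0 CPM in the Molino libraries, against 6.22, 8.85 and 14.1 CPM in the surface libraries, so it was at least 46-fold lower in Molino (3 counts set over the 3 Molino libraries; adjusted p = 0.0122). Bounds and intervals on reads cover counting error only. Another copy, ENSAMXG00000029871, was dominated by 1 library: 5.90, 12.8 and 20.9 CPM in Molino against 5.93, 496 and 1.81 CPM in surface fish, the 496 being surface replicate 2 (adjusted p = 0.442). Reads that mapped to more than 1 near-identical copy were left unassigned in counting, so these values are uncertain.

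Genes higher in Molino were fewer: 13 of the 35 had a symbol, against 32 of the 48 that fell. Wt1b had the highest level of the named ones. It encodes a Wilms tumour zinc finger transcription factor of kidney and gonad, which in the ovary is a marker of granulosa cells. It had 154, 201 and 325 CPM in the Molino libraries, against 22.6, 34.7 and 42.7 CPM in the surface libraries (log2 fold change 2.77, SE 0.46, adjusted p = 0.0334). The lowest Molino library was far above the highest surface library. When single libraries were left out, wt1b passed in 1 of the 6 fits, that without surface replicate 2. With the other-cell covariate the difference was 2.48 (adjusted p = 0.0163). That covariate pools markers of several cell types, wt1b among them, so it cannot adjust for granulosa cells alone. The granulosa sums themselves overlapped, at 11.45, 11.99 and 12.83 log2 CPM in Molino and 10.28, 12.31 and 11.76 log2 CPM in surface fish (difference 0.64, exact p = 0.5). Abundant members weigh most in these sums. Among them ENSAMXG00000036187 had 1076, 1388 and 2173 CPM in Molino against 408, 2079 and 962 CPM in surface fish. The keratin krt18b had 451, 792 and 638 CPM in Molino against 124, 1014 and 377 CPM in surface fish.

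Of 37 tested granulosa genes wt1b alone passed. Another 27 were positive (44.6% of all genes), 8 in all had groups that do not overlap with Molino higher (7.64% of all genes), and the median was 0.62. Sox9a, fstb and esr2a did not pass and were chosen after their values were seen. Sox9a, a gonadal transcription factor, had 2.79, 2.61 and 3.40 CPM in Molino against 0.145, 0.227 and 0.181 CPM in surface fish (3.83 (SE 0.72, adjusted p = 0.0613)). Fstb, a follistatin that binds activin, had 5.74, 4.13 and 3.40 CPM in Molino against 0.868, 0.227 and 0.543 CPM in surface fish (2.91 (SE 0.75, adjusted p = 0.119)). Esr2a, an estrogen receptor, stood at 1.63 (SE 0.52, adjusted p = 0.222). Fshr, the receptor for follicle-stimulating hormone, had 23.0, 30.5 and 43.9 CPM in Molino against 4.49, 9.53 and 20.6 CPM in surface fish (1.49 (SE 0.56, adjusted p = 0.337)). Amh, which restrains follicle growth, had 1.48, 2.61 and 3.66 CPM in Molino against 2.32, 0.908 and 4.53 CPM in surface fish (-0.03 (SE 0.60, adjusted p = 0.991)), and the aromatase cyp19a1a 25.6, 45.0 and 333 CPM in Molino against 9.99, 160.5 and 159 CPM in surface fish (0.29 (SE 1.08, adjusted p = 0.949)). The last of these varied more within each group than between them. Gsdf, a gonadal growth factor of the somatic cells, stood at -0.98 (SE 0.58, adjusted p = 0.588), and hsd17b1, which makes estradiol, at 1.16 (SE 0.79, adjusted p = 0.641).

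Cyp17a2, a hydroxylase of steroid synthesis in fish, rose. It had 5.58, 6.74 and 8.37 CPM in the Molino libraries, against 0.724, 0.454 and 0.724 CPM in the surface libraries (log2 fold change 3.36, SE 0.58, adjusted p = 0.0392). It passed in 1 of the 6 fits with a library left out, that without surface replicate 2. Of 21 tested steroidogenesis genes it was the only one that passed, 16 were positive, and the median was 0.58. Its relative cyp17a1 had overlapping groups, with 26.4, 60.5 and 153 CPM in Molino against 5.93, 18.2 and 26.6 CPM in surface fish (2.24 (SE 0.79, adjusted p = 0.289)), and was chosen after its values were seen. Star, which carries cholesterol into mitochondria, had 5.91, 5.22 and 14.4 CPM in Molino against 0.579, 3.86 and 3.08 CPM in surface fish (1.77 (SE 0.69, adjusted p = 0.354)). Summed steroidogenesis markers were 10.04, 10.45 and 10.92 log2 CPM in Molino and 10.01, 10.46 and 10.26 log2 CPM in surface fish. Dhrs3b, a reductase that turns retinal into retinol, had 7.38, 7.83 and 6.54 CPM in the Molino libraries, against 1.30, 1.14 and 0.905 CPM in the surface libraries (log2 fold change 2.67, SE 0.47, adjusted p = 0.0413).

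Several receptors and adhesion proteins with few reads in surface fish rose. Mtnr1ba, a receptor for the night hormone melatonin, had 6.07, 9.57 and 20.7 CPM in the Molino libraries, against 0.579, 0 and 0.362 CPM in the surface libraries (log2 fold change 5.04, SE 0.82, adjusted p = 0.0323). GPR21, an orphan receptor, had 6.56, 11.095 and 19.9 CPM in the Molino libraries, against 0.724, 0.681 and 0.905 CPM in the surface libraries (log2 fold change 3.97, SE 0.64, adjusted p = 0.0313). Pcdh17, a protocadherin of cell adhesion, had 5.91, 5.87 and 6.54 CPM in the Molino libraries, against 0.434, 0.908 and 0.362 CPM in the surface libraries (log2 fold change 3.41, SE 0.54, adjusted p = 0.0308). The copy ENSAMXG00000005975 of TENM2, a teneurin that links cells at synapses, had 17.6, 14.1 and 10.5 CPM in the Molino libraries, against 1.59, 1.36 and 1.81 CPM in the surface libraries (log2 fold change 3.12, SE 0.47, adjusted p = 0.0246). The second copy did not pass (log2 fold change -0.51, adjusted p = 0.775). The copy ENSAMXG00000003809 of PAMR1, a peptidase-like secreted protein, had 1 surface read, with 7.38, 10.9 and 32.2 CPM in Molino against 0, 0 and 0.181 CPM in surface fish, a ratio of 253-fold (counting interval 44.9 to 10000) (adjusted p = 0.0186).

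Other single genes that rose are ordered by role in the same way. Hspb8, a small heat shock protein that takes part in selective autophagy, had 10.2, 13.9 and 12.3 CPM in the Molino libraries, against 0.868, 0.227 and 1.27 CPM in the surface libraries (log2 fold change 3.86, SE 0.62, adjusted p = 0.0319). Of 41 tested heat shock genes it was the only one that passed, 30 were positive, and the median was 0.30. Dnajb1b, a co-chaperone induced by heat, was not past the threshold and was chosen after its values were seen: it had 353, 580.0 and 401 CPM in Molino against 75.4, 163 and 111 CPM in surface fish (1.93 (SE 0.44, adjusted p = 0.0819)). Pabpc4, which binds the poly(A) tails of messenger RNA, had 42.0, 63.1 and 93.1 CPM in the Molino libraries, against 7.09, 12.03 and 6.33 CPM in the surface libraries (log2 fold change 2.96, SE 0.48, adjusted p = 0.0323). Ampd1, the muscle form of AMP deaminase, had 3 surface reads, with 7.87, 5.22 and 7.58 CPM in Molino against 0.289, 0 and 0.181 CPM in surface fish, a ratio of 39-fold (counting interval 13 to 193) (adjusted p = 0.0331). Summed muscle markers, given above, were lower in Molino. Myt1la, a zinc finger factor of neurons, had 5.74, 5.44 and 7.84 CPM in the Molino libraries, against 0.868, 0.227 and 0.905 CPM in the surface libraries (log2 fold change 3.15, SE 0.58, adjusted p = 0.0477). The gene zgc:112294 had 18.2, 14.6 and 7.84 CPM in the Molino libraries, against 0, 0 and 0 CPM in the surface libraries, at least 80.4-fold higher in Molino (3 counts set over the 3 surface libraries; adjusted p = 0.0308). The most abundant gene that rose had no symbol: ENSAMXG00000040481 had 668, 773 and 2131 CPM in the Molino libraries, against 2.90, 0.227 and 2.35 CPM in the surface libraries (log2 fold change 9.28, SE 1.02, adjusted p = 0.00921).

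Markers of oocytes did not pass in either direction. Of 34 oocyte factors 25 were negative, with a median of -0.39. Gdf9 and bmp15, growth factors that the oocyte sends to granulosa cells, had 24.8, 20.4 and 10.98 CPM in Molino against 16.8, 11.6 and 12.5 CPM in surface fish (0.46 (SE 0.52, adjusted p = 0.782)) and 41.0, 27.4 and 11.8 CPM in Molino against 22.7, 10.2 and 16.1 CPM in surface fish (0.71 (SE 0.68, adjusted p = 0.742)). Figla, a transcription factor of egg coat genes, stood at -0.54 (SE 0.64, adjusted p = 0.796), the maternal factor zar1 at -1.18 (SE 0.82, adjusted p = 0.646) and the germline helicase ddx4 at 0.13 (SE 0.61, adjusted p = 0.964). Zar1 had 1403, 827 and 397 CPM in Molino against 2813, 343 and 2816 CPM in surface fish, so surface replicate 2 was lower than every Molino library while the other surface libraries were higher. At these standard errors a difference of that size is not detectable with 3 libraries a side.

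**Figure D3:**
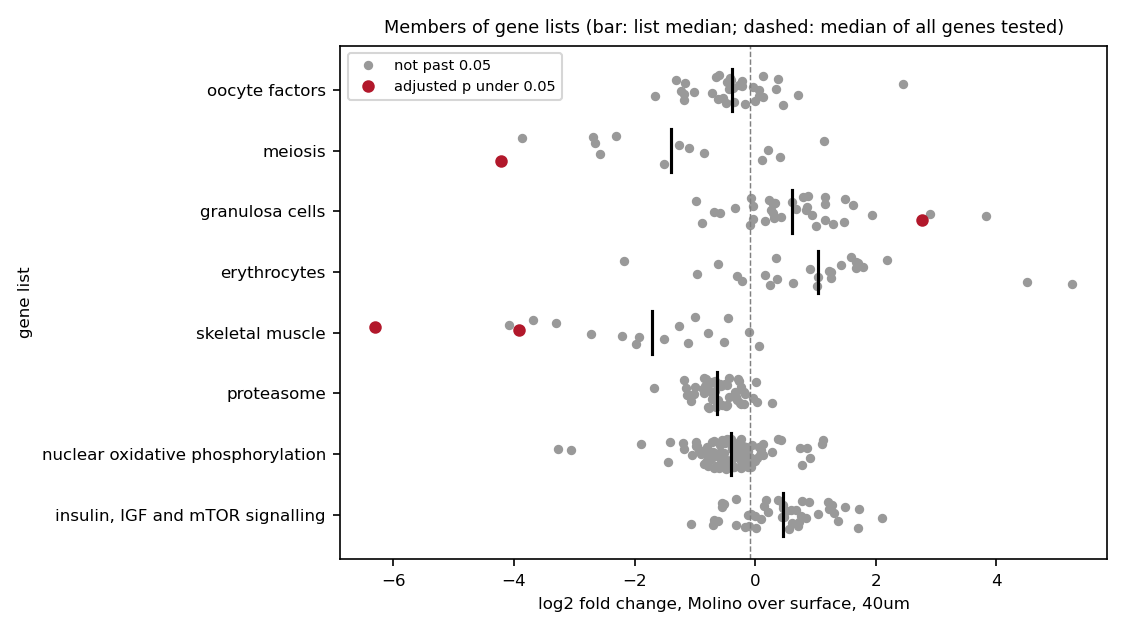
Log2 fold change, Molino over surface fish at 40um, of each tested member of 8 gene lists (points), with members past an adjusted p of 0.05 in red, list medians as black bars and the median of all genes tested as a dashed line. Few members pass, and the skeletal muscle and meiosis medians lie farthest to the left, while the erythrocyte median lies farthest to the right.

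Blood genes were mostly positive without passing. Of 25 tested erythrocyte genes 20 were positive and the median was 1.04, but none passed. Groups did not overlap with Molino higher in 11 (7.64% of all genes) and with Molino lower in 2 (7.97% of all genes). The beta globin hbba2 had 633, 558 and 265 CPM in Molino against 45.2, 155 and 255 CPM in surface fish (1.68 (SE 0.65, adjusted p = 0.35)). Epor, the erythropoietin receptor, had 127, 91.2 and 63.0 CPM in Molino against 18.1, 28.6 and 39.8 CPM in surface fish (1.70 (SE 0.43, adjusted p = 0.112)). Nt5c2l1, a nucleotidase, and sptb, a spectrin of the red cell membrane, stood at 2.19 (SE 0.56, adjusted p = 0.121) and 1.58 (SE 0.45, adjusted p = 0.161). These last 3 were chosen after their values were seen. Molino replicate 1 was the highest library for each of these 4. The macrophage gene c1qc stood at -0.30 (SE 1.05, adjusted p = 0.945) and the antigen presentation gene cd74a had 787, 1675 and 623 CPM in Molino against 300.5, 1354 and 912 CPM in surface fish (0.27 (SE 0.67, adjusted p = 0.919)), both with overlapping groups. Of 28 macrophage and granulocyte, 15 lymphocyte, 17 endothelial and 28 stromal genes tested none passed. Plasma proteins were negative in 14 of 16 tested genes, none of which passed. Their sum over 32 markers had the other sign, at 10.78, 11.3 and 11.86 log2 CPM in Molino and 8.93, 13.22 and 9.21 log2 CPM in surface fish (difference 0.86, exact p = 0.6), with overlapping groups. Surface replicate 2 was above every Molino library in this sum, and surface replicates 1 and 3 were below all of them. The sums were compared as means of log2 values, whereas gene fold changes compare group levels, which 1 high library can raise. Fgb, a fibrinogen chain chosen after its values were seen, had 17.7, 5.66 and 15.7 CPM in Molino against 36.04, 119 and 49.4 CPM in surface fish (-2.38 (SE 0.56, adjusted p = 0.0904)).

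The lists of the proteasome and of nuclear oxidative phosphorylation were mostly negative, with no member that passed. Of 53 proteasome genes 50 were negative (median -0.63), and 10 had groups that do not overlap with Molino lower, against 7.97% of all genes. Psme2, of the immune-type activator of the proteasome, had 7.54, 19.4 and 22.0 CPM in Molino against 42.7, 77.9 and 35.5 CPM in surface fish (-1.68 (SE 0.61, adjusted p = 0.308)). Of 98 nuclear genes of oxidative phosphorylation 81 were negative (median -0.39), such as the complex I assembly factor ndufaf2 with 1.48, 0.870 and 1.57 CPM in Molino against 18.2, 4.09 and 16.1 CPM in surface fish (-3.28 (SE 0.77, adjusted p = 0.0911)). Psme2 and ndufaf2 were chosen after their values were seen. At 40_100um the medians of these lists were 0.07 and 0.17.

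Insulin, IGF and mTOR genes were mostly positive. Of 45 tested 31 were positive (44.6% of all genes) and the median was 0.47, but none passed. Groups did not overlap with Molino higher in 12 (7.64% of all genes) and with Molino lower in 2 (7.97% of all genes). The insulin receptor gene insra had 198, 293 and 589.6 CPM in Molino against 38.9, 96.7 and 115 CPM in surface fish (2.11 (SE 0.61, adjusted p = 0.174)). Irs2a, an adaptor of that receptor, and eif4ebp3, which restrains translation, stood at 1.73 (SE 0.52, adjusted p = 0.196) and 1.71 (SE 0.35, adjusted p = 0.0613). In the clock list 29 of 41 were positive with a median of 0.21, and none passed. The clock activator bmal1b had 26.4, 27.2 and 24.1 CPM in Molino against 7.67, 9.76 and 10.9 CPM in surface fish (1.46 (SE 0.37, adjusted p = 0.112)), and the repressor per1a stood at 1.75 (SE 0.52, adjusted p = 0.188). Per2, which light induces in fish, had 9.19, 13.7 and 25.1 CPM in Molino against 35.6, 109.6 and 88.3 CPM in surface fish (-2.29 (SE 0.54, adjusted p = 0.0929)), lower in each Molino library than in any surface library. These genes other than per2 were chosen after their values were seen. Oca2, the pigment gene mutated in albino cavefish, had 17.1, 18.3 and 9.15 CPM in Molino against 137, 21.6 and 71.0 CPM in surface fish (-2.36 (SE 0.70, adjusted p = 0.185)), and the lipid droplet gene plin2 444, 812 and 547 CPM in Molino against 86.0, 894 and 129 CPM in surface fish (0.70 (SE 0.83, adjusted p = 0.795)).

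The genes that passed at 40um were then looked up in the larger size categories, which are other libraries. The labels do not say whether they came from the same fish. Of the 48 genes lower at 40um, 40, 43 and 44 were tested at 40_100um, 100_300um and 300um, and 35, 41 and 41 fell there too, against 15.4%, 7.95% and 9.13% of all genes. All that were tested were negative, against 51.7%, 52.8% and 52.6% of all genes. Of the 35 genes higher at 40um, 16, 21 and 20 were tested and 12, 15 and 15 rose, against 14.1%, 6.63% and 7.35% of all genes, and 1 gene without a symbol fell at 40_100um. Positive values were found in 14, 21 and 19 of them, against 48.3%, 47.1% and 47.3% of all genes. In all, 68 of the 83 were tested at 1 or more larger sizes, and 61 of these passed the same way there (89.7%, against 24.3% of all genes), 46 of them at all 3. Dmc1, mcm6, wt1b, cyp17a2 and hspb8 were among the 7 that were tested there and passed at no larger size. The other 15 of the 83 were tested at no larger size, and 12 of them were higher in Molino. Genes that passed at the larger sizes, counted over both directions, were 47, 56 and 56, and 47, 57 and 54 when 3 larger-size libraries with raised markers of other cells were left out, a choice made after seeing the data.

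**Figure D4:**
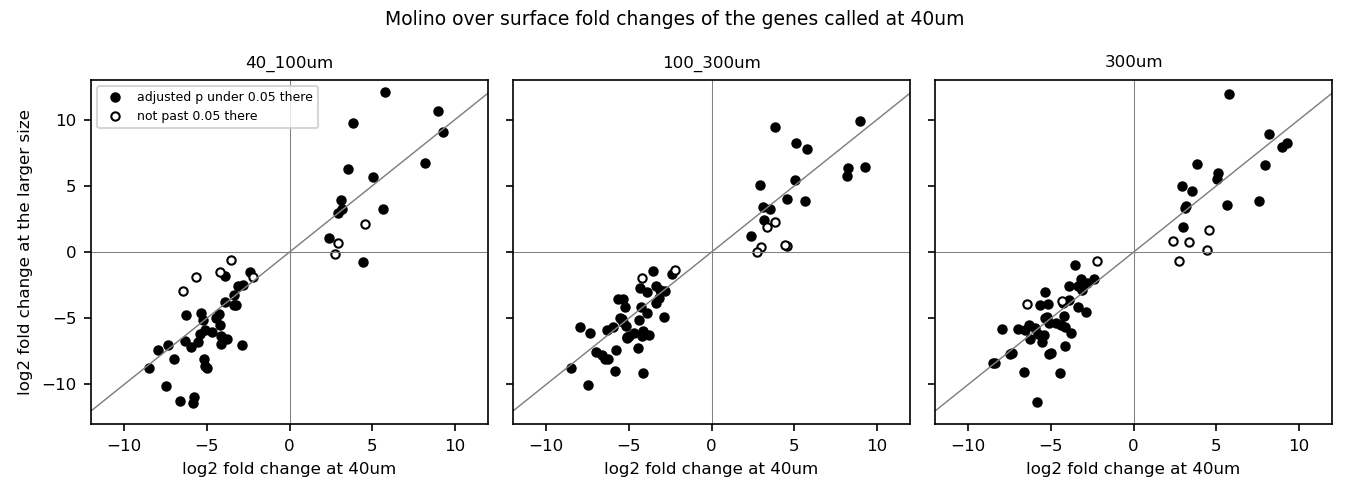
Log2 fold change, Molino over surface fish, at each larger size (vertical axis) against that at 40um (horizontal axis) for the genes that passed at 40um and were tested at that size, filled where they pass at the larger size too. All genes lower at 40um lie below 0 at each larger size, and the line marks equal values. Many of the farthest points rest on groups with few or no reads.

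Several changes were found at every size. Kif22 stood at -6.16 at 40_100um (adjusted p = 7.87e-11), -5.32 at 100_300um (adjusted p = 1.31e-08) and -4.96 at 300um (adjusted p = 5.96e-07), with mean levels of 5.24 ± 1.27 against 376 ± 33.3 CPM at 40_100um, 9.50 ± 0.396 against 379 ± 56.6 CPM at 100_300um and 10.9 ± 1.51 against 337 ± 78.5 CPM at 300um (Molino against surface, SD, n = 3). KNTC1 stood at -2.54 at 40_100um (adjusted p = 2.18e-08), -2.83 at 100_300um (adjusted p = 9.25e-07) and -2.84 at 300um (adjusted p = 5.96e-07). Ryr1b passed at each size too, at -1.78 at 40_100um (adjusted p = 0.0174), -2.99 at 100_300um (adjusted p = 0.000862) and -2.59 at 300um (adjusted p = 2.69e-05). Ehd1b stood at -2.48 at 40_100um, -2.96 at 100_300um and -2.32 at 300um, abcg2a at -3.28 at 40_100um, -2.53 at 100_300um and -2.55 at 300um, and myom2a at -4.03 at 40_100um, -3.86 at 100_300um and -4.14 at 300um. Of the genes higher at 40um, the TENM2 copy stood at 3.96 at 40_100um, 3.42 at 100_300um and 3.35 at 300um and myt1la at 3.29 at 40_100um, 2.44 at 100_300um and 3.51 at 300um. Gstr was nearly silent in Molino at the larger sizes, at 0.0539 ± 0.0934 against 27.7 ± 7.34 CPM at 40_100um, 0.266 ± 0.232 against 25.4 ± 8.46 CPM at 100_300um and 0.104 ± 0.0938 against 24.6 ± 4.99 CPM at 300um in Molino against surface fish (SD, n = 3).

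The fold changes of wt1b and the RPL22 copy differed between 40um and the larger sizes by the test given below. Wt1b stood at -0.12 at 40_100um (adjusted p = 0.854), 0.03 at 100_300um (adjusted p = 0.976) and -0.69 at 300um (adjusted p = 0.424), with 4.53 ± 2.13 against 4.97 ± 1.51 CPM at 40_100um, 21.1 ± 7.90 against 20.7 ± 15.0 CPM at 100_300um and 10.9 ± 3.01 against 17.6 ± 15.4 CPM at 300um in Molino against surface fish (SD, n = 3). At 40um these means were 227 ± 88.3 against 33.3 ± 10.1 CPM, so in both forms the mean was lower at each larger size. In surface fish the spread at 100_300um and 300um was wide. The RPL22 copy stood at -0.58 at 40_100um (adjusted p = 0.144), -1.41 at 100_300um (adjusted p = 0.0111) and -1.01 at 300um (adjusted p = 0.0102). For pabpc4 and mcm6 the same test of the difference did not pass, at 2.04, SE 0.61, adjusted p = 0.055 and -0.88, SE 0.89, adjusted p = 0.634. Pabpc4 stood at 0.68 at 40_100um (adjusted p = 0.374), 0.41 at 100_300um (adjusted p = 0.691) and 1.87 at 300um (adjusted p = 0.0164). Mcm6 stood at -1.89 at 40_100um (adjusted p = 0.131), -1.38 at 100_300um (adjusted p = 0.342) and -0.64 at 300um (adjusted p = 0.674).

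**Figure D5:**
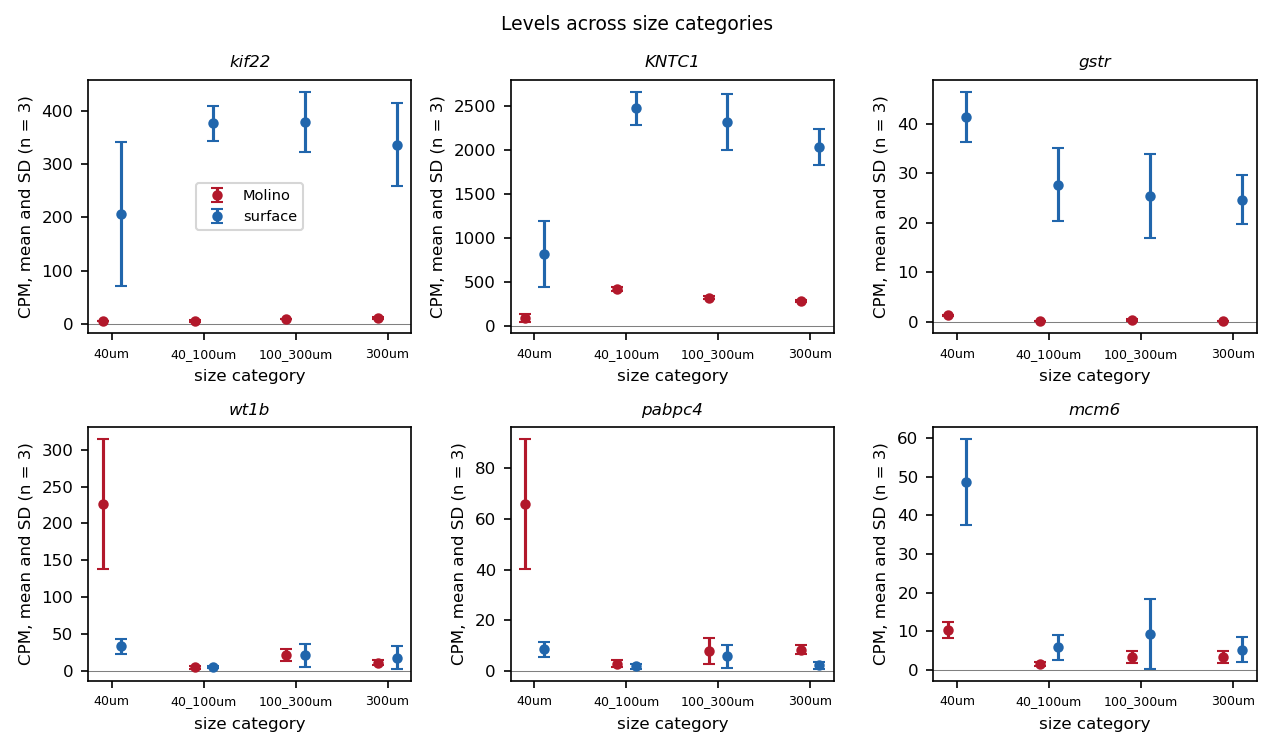
Mean CPM and SD of 3 libraries across the size categories in Molino (red, left of each pair) and surface fish (blue) for kif22, KNTC1, gstr, wt1b, pabpc4 and mcm6. Kif22, KNTC1 and gstr are lower in Molino at every size, while wt1b, pabpc4 and mcm6 have their highest mean levels at 40um in both forms. Of these 3, wt1b passed the test of a difference between sizes (adjusted p = 0.00181), and pabpc4 (adjusted p = 0.055) and mcm6 (adjusted p = 0.634) did not.

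The same look-up was made in the other direction. Of 581 genes higher in Molino at all 3 larger sizes, 524 were tested at 40um. Of these, 424 were positive there (80.9%, against 44.6% of all genes) and 11 passed. Of 735 genes lower at all 3 larger sizes, 679 were tested at 40um, 595 were negative (87.6%, against 55.3% of all genes) and 35 passed. Their median log2 fold changes at 40um were 0.61 and -1.06. An unadjusted p under 0.05 in the same direction was found for 26.1% and 46.1% of them, against 4.62% and 6.74% of all genes. Per2 is an example, with -3.17 at 40_100um (adjusted p = 0.000722), -2.31 at 100_300um (adjusted p = 2.4e-05) and -2.13 at 300um (adjusted p = 0.00158) beside its value of -2.29 at 40um.

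Whether the Molino and surface difference at 40um departs from that at the larger sizes was tested directly, as the difference at 40um minus the mean difference over the 3 larger sizes, in a fit of all 36 libraries. Of 18259 genes 733 passed (4.01%), 415 with a positive and 318 with a negative value. Among the 83 genes were 14 of them. Wt1b passed at 3.10, SE 0.59, adjusted p = 0.00181, and at none of the larger sizes was it past the threshold. The RPL22 copy passed at -2.48, SE 0.31, adjusted p = 1.19e-05, so its deficit in Molino was larger at 40um. Its mean in Molino was 6.38 CPM at 40um and 8.79, 7.06 and 6.37 CPM at the larger sizes in rising order. In surface fish it was 74.2 CPM at 40um and 13.2, 18.8 and 12.9 CPM at the larger sizes. Gstr and lipia passed with positive values, 2.57, SE 0.60, adjusted p = 0.0116 and 2.67, SE 0.47, adjusted p = 0.000902, so their log2 fold changes were less negative at 40um. Gstr averaged 1.25 CPM in Molino at 40um and 0.0539, 0.266 and 0.104 CPM at the larger sizes in rising order. Its value therefore rests on few Molino reads. Kif22, KNTC1 and ryr1b did not pass, at 0.14, SE 0.44, adjusted p = 0.914, -0.33, SE 0.31, adjusted p = 0.596 and -1.41, SE 0.54, adjusted p = 0.145. Levels of markers of other cells differed between sizes too. The macrophage list gene cd74a averaged 1028 CPM in Molino and 855 CPM in surface fish at 40um, and 1.83 and 2.54 CPM at 40_100um. For the granulosa gene cyp19a1a these means were 134 and 110 CPM at 40um, and 1.38 and 1.29 CPM at 40_100um. Library names in the labels number the 40um libraries in a run of their own. In this test a size effect cannot be told apart from an effect of that run or of the cell mixture.

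The second cave form gave mixed levels at 40um. Pachón and Molino were compared in the same fit, where 506 of 15917 genes passed (3.18%). Since the Molino libraries are shared with the comparison above, only levels are set side by side. Some genes low in Molino were high in Pachón, as kif22 with 265, 132 and 68.3 CPM, gstr with 96.6, 43.3 and 39.9 CPM, INPP5K with 122, 53.0 and 34.3 CPM and abcg2a with 108, 38.9 and 36.5 CPM. Others were low in Pachón too, as KNTC1 with 86.0, 70.3 and 33.7 CPM, dmc1 with 0.462, 0.442 and 0.928 CPM, GALNT8 with 0, 0 and 0 CPM and b3gat1a with 0.462, 0 and 0.309 CPM. Of the genes high in Molino, zgc:112294 had no read in Pachón, mtnr1ba had 0.924, 0.884 and 0.309 CPM, pabpc4 had 66.8, 135 and 128 CPM, and pcdh17 had 6.24, 7.51 and 4.33 CPM. Wt1b lay between the Molino and the surface libraries, at 65.2, 121 and 115 CPM.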

How the data were processed

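The authors deposited whole-number read counts per Ensembl gene, made with STAR 2.7.10b and RSEM per the submitters' processing notes. The genome build and the strand setting of the counting are not given in the sources used here, so antisense genes cannot be told apart. Per the labels' protocols, ribosomal RNA was depleted and RNA input and PCR cycles varied, without a value per library. The table holds 27420 genes, 16752 with a symbol. Entries for unassigned reads, on average 61.3% of the reads in the 6 libraries, entered neither the library sizes nor a test. The deposited CPM table was not used.

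Counts of the 9 libraries of 40um, Pachón included to share the spread estimate, passed through filterByExpr (min.count 10, min.total.count 15) and TMM scaling. Differences were tested by the quasi-likelihood F test of edgeR 4.0.16 in R 4.3.3, with dispersions estimated robustly. P-values were adjusted by Benjamini-Hochberg over all genes tested, with a threshold of 0.05. All gene-wise adjusted p come from it. The same fit was made at each larger size, and all 36 libraries were fitted for the size interaction. Marker sums were compared with an exact permutation test. For a group without reads a fold is a bound with 3 counts set over that group, and for 1 to 3 reads the ratio has a 95% exact counting interval.

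Replicate libraries differed beyond counting noise (14.6 to 142 for chi-square over its degrees of freedom), and none was treated as a duplicate. Alternatives were DESeq2 1.42.0 and its size factors, library totals, no filter, the 50 most abundant genes left out, other sets of libraries, a replicate block, other-cell markers as a covariate and each library left out. Leaving out surface replicate 2 with Molino replicate 3, and leaving out 3 larger-size libraries, were chosen after seeing the data. The tests were also run on simulated counts with known changes put in. Those counts held no difference in cell mixture between libraries, so they do not bear on its effect here.

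The comparison, the 39 gene lists and the rules were chosen with earlier results of these data known. Named are the 14 largest changes each way that passed, with a symbol unique in the table, a mean level of 1 log2 CPM or more and groups that do not overlap, up to 4 members of each list that passed, a list of anchor genes, and the 5 largest size interactions each way, 1 of which is not reported here. No sequences are printed.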

Additional observations from a re-analysis of the deposited data

Results flagged for a closer look

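For these genes the difference between Molino and surface fish at 40um departed from the mean difference at the 3 larger sizes, by edgeR's quasi-likelihood test of the difference itself in 36 libraries. Values are log2 (40um minus larger sizes). Where a group had no reads at a larger size, the size of the value depends on the prior count. The library names in the labels number the 40um libraries in a run of their own. Markers of other cells also differed in level between sizes, and their part in these values was not tested.

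More positive at 40um were EMILIN2, a matrix glycoprotein (5.78, adjusted p = 0.00103), zgc:163061 (5.64, adjusted p = 0.000547), the defensin-like defbl3 (5.47, adjusted p = 0.000547), ahsg2, a fetuin (5.18, adjusted p = 0.0106), and TRIB1, a pseudokinase (4.63, adjusted p = 0.00611). The gene zgc:163061 averaged 1.29, 1.71 and 1.05 CPM in Molino at 40_100um, 100_300um and 300um, against 104.5, 104.5 and 119.9 CPM in surface fish, while at 40um it averaged 39.8 CPM in Molino and 63.3 CPM in surface fish. TRIB1 averaged 153.6 CPM in Molino and 61.4 CPM in surface fish at 40um, and 0.482 against 7.61 CPM at 40_100um. EMILIN2 averaged 4.62 CPM in Molino and 4.12 CPM in surface fish at 40um, and 0.645 against 18.3 CPM at 300um. Defbl3 and ahsg2 were low in Molino at 40um as well. Defbl3 averaged 3.27 CPM in Molino and 12.9 CPM in surface fish there. Ahsg2 had 1.54, 0 and 0 CPM in Molino against 11.6, 12.9 and 15.3 CPM in surface fish. At the larger sizes in rising order ahsg2 averaged 0, 0 and 0.0542 CPM in Molino, so its value rests on few reads.

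More negative at 40um were CEMIP, which acts on hyaluronan (-4.71, adjusted p = 0.000106), the complement regulator cfp (-4.72, adjusted p = 0.0463), SPECC1 (-4.90, adjusted p = 0.000125) and bgna, a biglycan (-5.49, adjusted p = 0.000757). CEMIP averaged 105, 135.3 and 125.8 CPM in Molino at the 3 larger sizes in rising order, against 1.59, 4.00 and 9.28 CPM in surface fish, while at 40um it averaged 56.9 CPM in Molino and 48.3 CPM in surface fish, with 103.5 CPM in surface replicate 2. SPECC1 averaged 29.1, 44.3 and 45.6 CPM in Molino at the larger sizes, against 0.309, 2.21 and 2.33 CPM in surface fish, while at 40um the means were 31.4 CPM in Molino and 29.0 CPM in surface fish. In cfp the 40um mean of surface fish rests on surface replicate 2, at 512 CPM against 51.9 and 30.9 CPM in surface replicates 1 and 3.

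Among genes that passed at 40um, positive values were found for the copies ENSAMXG00000008839 of GUCY2C (4.71, adjusted p = 0.0326), ENSAMXG00000026100 of DSEL (3.58, adjusted p = 0.0344) and ENSAMXG00000034599 of PLXNA2 (1.87, adjusted p = 0.0476), for wt1b (3.10, adjusted p = 0.00181), lipia (2.67, adjusted p = 0.000902) and gstr (2.57, adjusted p = 0.0116). The RPL22 copy ENSAMXG00000038704 had a negative value (-2.48, adjusted p = 1.19e-05).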

How the results depend on the processing

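How many genes pass depends on the processing. The groups of all 83 do not overlap, so a library left out cannot turn their direction. The counts (total, higher, lower in Molino) were 83, 35 and 48. They were 201, 88 and 113 without an expression filter, 676, 277 and 399 with DESeq2, 40, 18 and 22 with only the 6 libraries, 1974, 857 and 1117 in 1 fit of all 36 libraries, and 272, 115 and 157 with other-cell markers as a covariate. Library totals gave 105, 56 and 49. Without 1 library the counts ranged from 2 to 354, 2 to 111 and 0 to 243. Fits without 1 library test fewer samples. With the replicate number as a block 193 passed, 98 higher and 95 lower, 81 of them shared. The labels do not say that a number marks a shared fish or batch, and the numbers were not taken as pairs. In a check for pairing by number, same-numbered Molino and surface libraries correlated at 0.603, 0.0848 and 0.132, and those with different numbers at -0.536 to 0.369. These values do not measure how alike whole expression profiles were. Replicates 1 and 2 of Molino correlated best with their own number, and Molino replicate 3 with surface replicate 2 (0.369). The median of all genes was -0.08, 0.03 with library totals, and between -0.12 and 0.07 over the alternatives.

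The share of all genes past the threshold at 40um that also passed the same way at a larger size, 73.5% (61 of 83), was 60.1% with DESeq2, 87.5% with 6 libraries, 53.1% in the fit of all libraries, and 63.3 to 100% without 1 library. Genes higher at all larger sizes were positive at 40um in 86.1% (library totals), 85% (no filter), 86.2% (all libraries), 85.9% (covariate) and 76.2 to 84.1% (1 library left out). Those lower were negative in 84.5% (library totals) and 82.1 to 91.1% (1 library left out). The size interaction counted 733, 415 positive and 318 negative. DESeq2 gave 1235, 736 and 499, no filter 197 negative, the 24 Molino and surface libraries alone 184 negative, and leaving out 1 library 389 to 2932, 218 to 1925 and 143 to 1007.

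Among genes that had not passed, amh was 0.00502 with DESeq2's size factors, 0.116 with library totals, 0.0195 without the filter, 0.0805 with all libraries, 0.0545 with the block, 0.0149 with the covariate, and -0.37 to 0.61 without 1 library. The covariate turned figla (0.0608), cyp19a1a (-0.66), cd74a (-0.13), EMILIN2 (-0.19), CEMIP (-0.000595) and SPECC1 (-0.22). Leaving out surface replicate 2 and Molino replicate 3 together turned cyp19a1a (-1.24), hsd17b1 (-0.51) and c1qc (1.40, and 0.21 with the block). Without 1 library the ranges were -1.60 to 0.78 for cyp19a1a, -0.52 to 1.63 for hsd17b1, -0.89 to 1.26 for c1qc, -0.26 to 0.82 for cd74a, -0.25 to 0.73 for ddx4, -0.62 to 1.23 for EMILIN2, -0.26 to 1.39 for CEMIP and -0.32 to 0.34 for SPECC1. The cause of these changes was not tested. Marker sums moved by no more than the larger SD of the groups. That is a wide measure, since the surface SD holds surface replicate 2 (1.06 for all other-cell markers and 1.03 for oocyte factors). The overlap of the groups in these sums rests on that library, at 14.77 and 12.8 log2 CPM.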
